A study of Mus musculus with 74 samples.

Results

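The 8 genes described here are Pck1, G6pc, Fbp1, Pklr, Slc2a2, Ppargc1a, Irs2 and Gys2, which act in glucose production, glycolysis, glucose transport, glycogen synthesis and insulin signalling of the liver. They were chosen by symbol and make up 8 of the 14583 genes in the RNA-seq table. In the 13 ChIP-seq comparisons their rows are the peaks that the deposited tables annotate to one of these genes, from 40 rows of 31434 for RNA polymerase II to 139 of 102519 for PPARα in the GPS2 line. The study compared knockout with WT mouse livers to learn how GPS2, a subunit of the NCOR and SMRT corepressor complexes, acts on hepatic genes and on the nuclear receptor PPARα. All mice were C57BL/6 of 8 to 12 weeks of age on a normal chow diet. GPS2 LKO mice carried floxed Gps2 alleles and the hepatocyte-directed Alb-Cre transgene, and floxed Gps2 animals without Cre from the same breedings were the GPS2 WT. NCOR LKO and SMRT LKO mice were liver-specific knockouts of these corepressors, each set beside the WT of its own line, and the PPARa KO lacked the receptor in the whole body. Whole liver was used, so cells that Alb-Cre does not reach were in every sample, and each ChIP-seq library could hold several pooled immunoprecipitations. RNA was sequenced from 4 GPS2 WT and 4 GPS2 LKO livers. The ChIP groups held 3 libraries each, except 2 for H3K27ac and H3K4me3 in the GPS2 line and for PPARα in the PPARa line, and 1 for GPS2 and RNA polymerase II in the GPS2 line.

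The liver releases glucose in fasting through gluconeogenesis, in which Pck1 makes phosphoenolpyruvate, Fbp1 removes a phosphate from fructose bisphosphate and G6pc frees glucose from glucose 6-phosphate. Pklr, the liver pyruvate kinase, runs the last step of glycolysis in the opposite direction, Slc2a2 (GLUT2) carries glucose across the hepatocyte membrane, and Gys2 is the liver glycogen synthase. Ppargc1a encodes PGC-1α, a coactivator induced by fasting that works with PPARα and other nuclear receptors, and Irs2 passes the insulin receptor signal to PI3 kinase. NCOR and SMRT hold histone deacetylase 3 at nuclear receptors, H3K27ac marks active enhancers and promoters, and H3K4me3 marks promoters in use.

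RNA-seq totals ran from 13.194 to 20.086 M counts per library and ChIP-seq totals from 7.902 to 46.107 M tags. The targeted transcript was lower in all 4 LKO livers: Gps2 stood at 16.4, 15.8, 16.7 and 15.1 CPM (counts scaled to a common library total) in WT and at 12.7, 9.87, 9.17 and 12.9 CPM in LKO. Hepatocyte markers summed to 105848 to 109710 CPM in WT and 143477 to 170496 CPM in LKO, most of it from Alb, and 3 of 6 (Alb, Ttr and Tat) were called higher and 1 (Hnf4a) lower. The stellate cell markers were higher in LKO for 6 of 6 genes, with sums of 139.6 to 144.8 CPM in WT and 251.2 to 266.8 CPM in LKO, and the macrophage list for 5 of 6, with sums of 111.0 to 113.5 and 143.9 to 173.3 CPM. Bile duct markers were called higher for 3 of 5 (64.4 to 68.8 CPM in WT, 91.2 to 111.6 CPM in LKO), endothelial markers for 2 of 6 (141.3 to 145.7 and 150.5 to 170.9 CPM), the 1 tested lymphocyte marker was called higher, and 2 red cell markers were higher and 1 lower. Long transcripts were read less in 3 LKO libraries, where log2 CPM changed by −0.16, −0.07 and −0.15 per doubling of exon length, against 0.07 in LKO 2 and 0.06 to 0.09 in WT. The part of the marker shifts in the RNA results was not tested, and in bulk liver fewer cells of a type and less RNA per cell cannot be told apart. Results with the length trend removed are given further on.

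The 5 stretches of sequence printed here are places for which PPARα, NCOR or GPS2 results are given further on. Each is the 201 bases around a peak centre, read from the plus strand of NCBIM37 (mm9), the build of the ChIP-seq tables, and none overlaps an annotated gene. The letters in capitals mark the closest match, on either strand, to AGGTCANAGGTCA, the direct repeat that PPARα binds with RXR.
G6pc, 16.4 kb upstream, chr11:101212491-101212691, full match on the minus strand: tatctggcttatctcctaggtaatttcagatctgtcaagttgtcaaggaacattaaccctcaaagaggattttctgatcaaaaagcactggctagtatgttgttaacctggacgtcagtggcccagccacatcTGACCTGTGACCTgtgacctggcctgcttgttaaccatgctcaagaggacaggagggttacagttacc
Pck1, 0.3 kb upstream, chr2:172978160-172978360, 3 letters apart: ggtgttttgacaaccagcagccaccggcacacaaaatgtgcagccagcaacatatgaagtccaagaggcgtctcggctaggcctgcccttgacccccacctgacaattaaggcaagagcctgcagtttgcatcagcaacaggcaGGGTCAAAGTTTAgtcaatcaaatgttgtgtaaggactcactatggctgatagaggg
Pck1, 17.3 kb downstream of the start, chr2:172995755-172995955, 2 letters apart: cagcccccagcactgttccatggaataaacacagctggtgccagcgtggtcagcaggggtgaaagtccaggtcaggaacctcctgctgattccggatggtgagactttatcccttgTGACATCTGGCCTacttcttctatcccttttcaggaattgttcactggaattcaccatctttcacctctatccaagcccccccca
Ppargc1a, 514.0 kb beyond the start, chr5:51431031-51431231, 3 letters apart: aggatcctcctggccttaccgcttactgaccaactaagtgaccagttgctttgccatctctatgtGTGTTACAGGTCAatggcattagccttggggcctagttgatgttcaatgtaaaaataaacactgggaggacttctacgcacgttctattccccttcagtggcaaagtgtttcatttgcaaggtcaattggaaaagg
Irs2, 137.0 kb upstream, chr8:11145374-11145574, 3 letters apart: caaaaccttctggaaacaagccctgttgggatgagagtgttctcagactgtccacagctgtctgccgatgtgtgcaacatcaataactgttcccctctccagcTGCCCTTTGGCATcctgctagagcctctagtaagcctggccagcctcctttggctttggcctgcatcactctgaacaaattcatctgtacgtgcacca
The G6pc upstream window and the Pck1 window 17.3 kb downstream were picked as the called PPARα row of their gene with the fewest mismatches. How close both matches are therefore depends on that choice. Among 201-base windows centred on PPARα peaks of the PPARa line, 1 of 79 member windows (1.27%) and 0.269% of all windows held a full match. Allowing 2 mismatches, 14 of the 79 member windows (17.7%) held a match, against 14.0% of all 40214 windows. The nearest protein-coding gene to the distal Ppargc1a window was Ppargc1a itself, 414257 bases away. For the Irs2 window it was Col4a1, at 52849 bases, and for the G6pc upstream window Aoc3, at 9239 bases. The links of these windows to Ppargc1a, Irs2 and G6pc are the annotation of the peaks and were not tested. None of the promoters of the 7 members with an entry in the RefSeq promoter table held the repeat with up to 2 mismatches, which 3.86% of 32851 promoters did.

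Loss of hepatic GPS2 moved the RNA of 7 of the 8 genes, 6 of them upward and Pck1 downward, by modest amounts that ran from a ratio of 0.87 to a ratio of 1.53. The shifts were tested with edgeR's quasi-likelihood test and Benjamini-Hochberg adjustment over 12220 genes, of which 44.8% were called at an adjusted p below 0.05, 23.4% higher and 21.4% lower, so that being called was common in these livers. The plot of RNA levels shows every library.

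**Figure D1:**
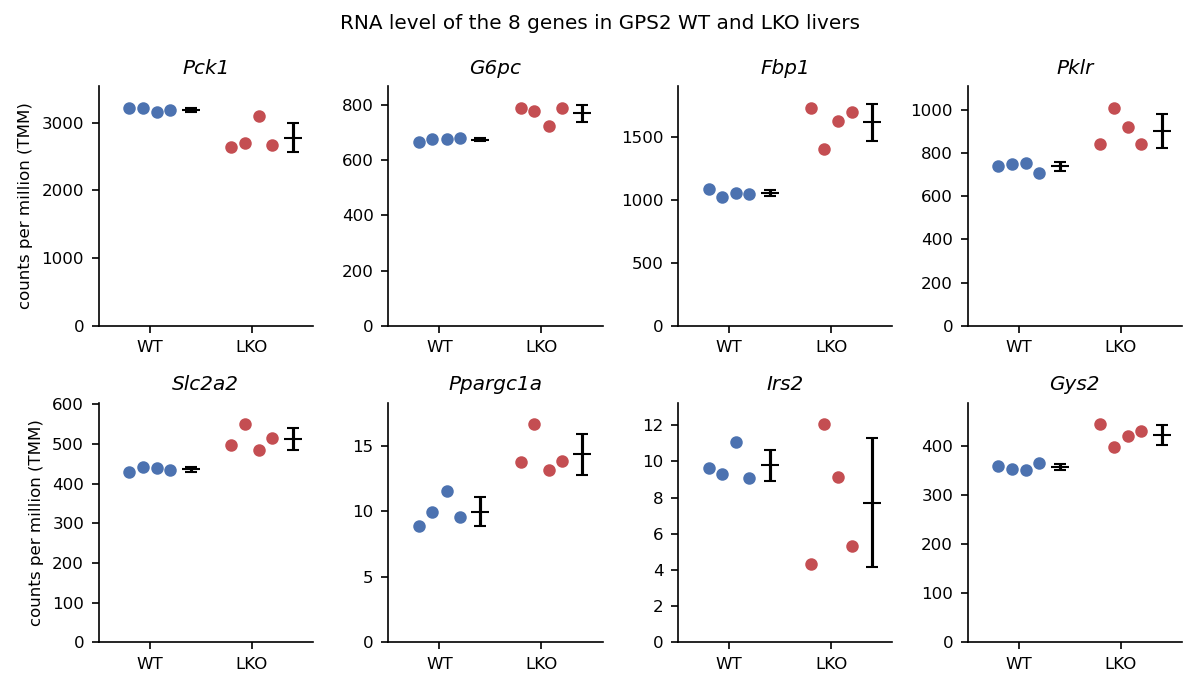
RNA level of the 8 genes in CPM (TMM scaling), with 1 point per liver in 4 WT and 4 LKO livers and, to the right of each group, the mean with its SD. The groups do not overlap for any gene but Irs2, whose LKO libraries spread from 4.3 to 12.1 CPM.

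Among the gluconeogenic enzymes the 3 genes went in different directions. Pck1 (chromosome 2, 173153073 to 173159253, GRCm38) was read at 3217, 3212, 3154 and 3177 CPM in WT and at 2637, 2699, 3097 and 2666 CPM in LKO. Its LKO values were all below the WT values, although LKO 3 came close to them, and the log2 fold change was −0.20 (SE 0.06, adjusted p = 0.0147). Fbp1 (chromosome 13, 62864753 to 62888282) rose from 1084, 1026, 1057 and 1050 CPM to 1733, 1407, 1626 and 1699 CPM. It was the member with the greatest change, at 0.62 (SE 0.07, adjusted p = 8.29e-06), and the lowest LKO liver was well above the highest WT liver. G6pc (chromosome 11, 101367716 to 101377903) rose from 667, 675, 678 and 679 CPM to 788, 777, 724 and 790 CPM, a log2 fold change of 0.19 (SE 0.05, adjusted p = 0.00917). Its WT livers differed by little, so this small rise separated the groups.

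Genes of glycolysis, transport and glycogen synthesis were all higher in LKO. Pklr (chromosome 3, 89136142 to 89146594) was read at 741, 747, 755 and 707 CPM in WT and at 840, 1008, 918 and 840 CPM in LKO, a log2 fold change of 0.29 (SE 0.06, adjusted p = 0.00304). Slc2a2 (chromosome 3, 28697903 to 28728360) went from 429, 442, 439 and 433 CPM to 497, 550, 485 and 516 CPM, a change of 0.23 (SE 0.06, adjusted p = 0.00439). In both genes LKO 2 was the highest liver and the groups were apart. Gys2 went from 360, 355, 352 and 366 CPM to 445, 398, 421 and 431 CPM, a change of 0.24 (SE 0.05, adjusted p = 0.00308), again with no overlap.

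The regulators were read at far lower levels. Ppargc1a rose from 8.87, 9.93, 11.5 and 9.55 CPM to 13.7, 16.6, 13.1 and 13.8 CPM, a log2 fold change of 0.53 (SE 0.11, adjusted p = 0.0017). Every LKO liver was above every WT liver. Irs2 stood at 9.62, 9.33, 11.1 and 9.11 CPM in WT and at 4.33, 12.1, 9.17 and 5.35 CPM in LKO, and the change of −0.29 (SE 0.23, adjusted p = 0.32) was within the spread between LKO livers. Without LKO 2, the library whose length trend resembled WT, the Irs2 change was −0.62 and passed the test (adjusted p = 0.00498). Per kilobase of exon the WT levels fell in the order Pck1 (1219 CPM per kb), Fbp1 (713), G6pc (299), Pklr (263), Slc2a2 (170), Gys2 (135), Irs2 (2.4) and Ppargc1a (1.5), and no neighbours in this order overlapped in WT.

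The groups did not overlap for 7 of the 8 genes, against 39.1% of all genes tested. Scaling by total counts instead of TMM moved the median of all genes from 0.03 to −0.15 and the share of higher genes among those called from 52.1% to 25.2%. On that scale only Fbp1 (0.43), Ppargc1a (0.35) and Pck1 (−0.38) were called, while G6pc (0.01), Slc2a2 (0.05), Gys2 (0.06) and Pklr (0.11) lost the call. With the length trend removed, G6pc lost it as well (0.10, adjusted p = 0.0527).

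Over the 8 libraries, and among genes with a mean of at least 10 CPM, genes with patterns most like each called member were found by the root mean square difference of centred log2 CPM. For Pck1 these were Vps9d1 (0.03), Zbtb17 (0.04) and Habp4 (0.04), and for G6pc they included Nfe2l2 (0.02) and Paics (0.02). Fbp1 was closest to Mettl7b (0.03), Alb (0.04) and Ces1b (0.04), Pklr to Pigr (0.03), Enpep (0.04) and Dsc2 (0.04), and Slc2a2 to Lipa (0.03), Itih2 (0.03) and Cyp4f15 (0.04). Gys2 was closest to Cdc42ep4 (0.02), Ctsb (0.02) and Insig2 (0.02), and Ppargc1a to Tbc1d8 (0.07), Tfrc (0.08) and Il17rb (0.08).

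Around the 8 genes, the lists of sugar metabolism enzymes had more genes higher than lower in GPS2 LKO. The insulin signalling list had more lower than higher, and the clock list had 5 lower and 3 higher of 15. Beside these counts, 23.4% of all genes tested were called higher and 21.4% lower. The lists were not tested against these shares. Of 17 gluconeogenesis genes tested, 9 were higher and 2 lower, with a median log2 fold change of 0.19 against 0.03 for all genes. Got1, the cytosolic aspartate aminotransferase, rose from 218 ± 5.4 to 447 ± 22.9 CPM (SD, n = 4 each), a change of 1.03 (SE 0.06, adjusted p = 9.41e-09), and Pck2, the mitochondrial counterpart of Pck1, rose by 1.23 from a low 3.4 to 8.0 CPM (adjusted p = 5.14e-06). Pcx, pyruvate carboxylase and the step before Pck1, was singled out after its values were seen as the other gene that fell, by 0.48 on the log2 scale (454 ± 18.8 to 326 ± 38.6 CPM, adjusted p = 0.000327).

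Glycolysis had 17 of 27 tested genes higher and 4 lower, with a median of 0.47. Pfkfb3, which makes the allosteric activator of phosphofructokinase, fell by 1.47 on the log2 scale, from 116 ± 1.5 to 41.5 ± 8.0 CPM (adjusted p = 1.79e-07), while Pfkp, a phosphofructokinase isoform, rose by 1.52 (1.5 to 4.1 CPM, adjusted p = 1.47e-05) and Ldhb by 1.12 (1.0 to 2.3 CPM, adjusted p = 0.00371). Pfkp and Ldhb were read at low levels in both groups. Gapdh and Pgam1 were read at 2.6 and 0.8 CPM in WT and Eno1 had no row. These genes have many near-identical pseudogenes, and their counts are uncertain.

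In the glycogen list 8 of 17 genes were higher and 4 lower, with a median of 0.17. Ppp1r3g, a subunit that brings protein phosphatase to glycogen, rose by 1.06 (7.2 to 15.0 CPM, adjusted p = 6.02e-06). Of 12 transport and fructose genes, 7 were higher and 1 lower (median 0.19), led by Slc2a4, the insulin-responsive transporter GLUT4 of muscle and fat, which went from 1.5 ± 0.4 to 10.2 ± 0.7 CPM (2.74, SE 0.15, adjusted p = 1.16e-08). Fat cell and skeletal muscle markers had no row in the table. Stellate cell and macrophage marker sums moved with these genes, as given above.

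Among 19 regulators 5 were higher and 1 lower, beside 23.4% higher and 21.4% lower of all genes. Their median was −0.05, against 0.03 for all genes. The nuclear receptor Nr4a1 rose by 2.35 (4.9 ± 0.3 to 24.8 ± 2.0 CPM, SE 0.10, adjusted p = 5.18e-10), and Hnf4a, singled out after its values were seen as the gene that fell, by 0.41 on the log2 scale (adjusted p = 0.000281). None of 16 insulin and glucagon signalling genes was higher and 6 were lower, with a median of −0.14. Irs1, the relative of Irs2, fell by 0.67 on the log2 scale (36.2 ± 5.2 to 22.5 ± 5.7 CPM, adjusted p = 0.003). The insulin receptor Insr fell by 0.49 (adjusted p = 0.00285) and the kinase Pdpk1 by 0.44 (adjusted p = 0.00177). Of 15 circadian clock genes, listed because Pck1 and G6pc oscillate over the day, 3 were higher and 5 lower, with a median of −0.05. Bhlhe41 fell by 1.84 (4.3 to 1.2 CPM, adjusted p = 4.68e-06) and Clock by 1.15 (31.6 ± 0.8 to 14.1 ± 2.9 CPM, adjusted p = 4.88e-06). On the total count scale the same lists gave 5 higher and 4 lower for gluconeogenesis, 10 and 5 for glycolysis, 6 and 7 for glycogen, 5 and 2 for transport, 4 and 10 for regulators, 0 and 9 for insulin signalling, and 2 and 8 for the clock. With the length trend removed, 2 insulin signalling genes were called higher and 4 lower. Regulators then had 5 higher and 4 lower, as they did with DESeq2 size factors.

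**Figure D2:**
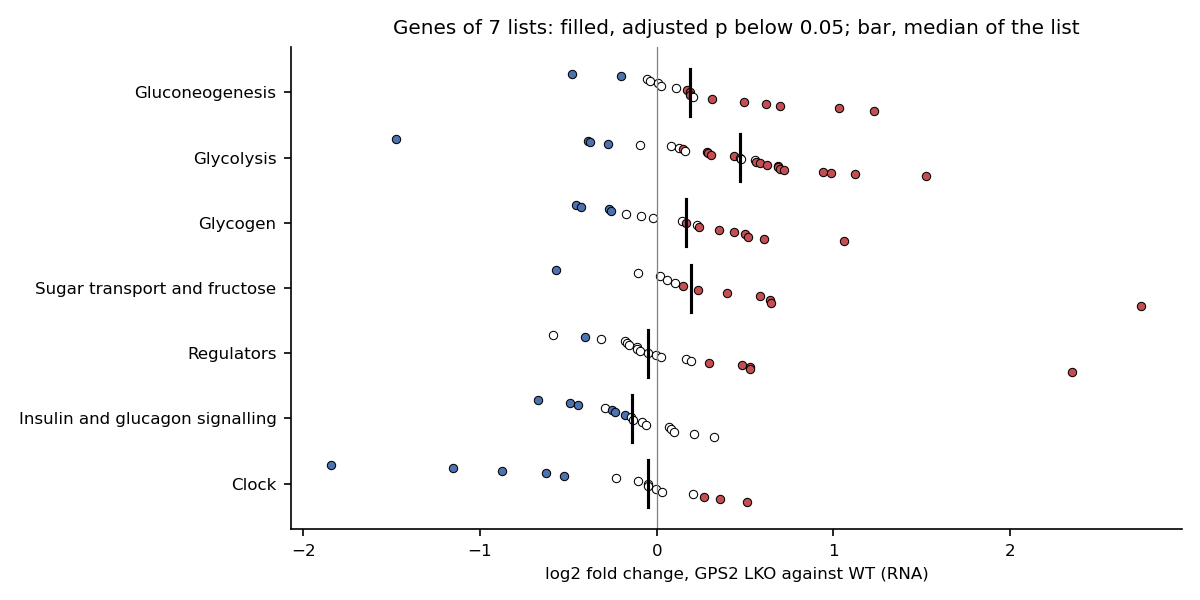
Log2 fold change of each tested gene in 7 lists, GPS2 LKO against WT, with 1 point per gene, filled red where it was called higher, blue where called lower and white where not called, and a bar at the median of the list. The glycolysis list has the highest median (0.47) and the insulin and glucagon list the lowest (−0.14).

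GPS2 itself was found at the start sites of all 8 genes in WT liver, and these tags were nearly gone in LKO. The table holds 1 library per genotype, so no test between genotypes was possible, and intervals here cover counting error only. At the start site row of G6pc the WT library had 82 tags and the LKO library 0, which makes WT at least 26.1-fold higher by a floor of 3 tags. Pck1 had 56 tags against 0 (at least 17.8-fold), Fbp1 49 against 0 and Irs2 38 against 0. For Gys2 the counts were 55 and 1 (LKO over WT ratio 0.02, 95% interval 0.00047 to 0.11), for Pklr 42 and 0, for Slc2a2 30 and 0, and for Ppargc1a 17 and 1. The greatest GPS2 counts were away from the start sites, at 131 tags 17.2 kb downstream of the Pck1 start (1 in LKO) and 89 tags 16.4 kb upstream of G6pc (3 in LKO). These are the places whose sequences are given above. Over all 69 rows 2256 WT tags stood against 55 LKO tags, a ratio of 0.0255 (95% interval 0.0192 to 0.0334) after scaling to total tags, beside 0.0439 over all rows of the table.

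For RNA polymerase II at the same start sites the ratios were closer to 1. At Pck1 it had 385 tags in WT and 426 in LKO, a scaled ratio of 1.08 (95% interval 0.943 to 1.25), and at Fbp1 285 and 301 tags, a ratio of 1.04 (0.877 to 1.22). The ratio was 1.19 (1.02 to 1.39) at G6pc and 1.46 (1.08 to 1.97) at Ppargc1a, where the counts were 78 and 116 tags. For the other 4 genes it ran from 0.966 to 1.06 with intervals on both sides of 1, and over all rows of the table it was 1.06. The plot of start site tags shows both proteins.

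**Figure D3:**
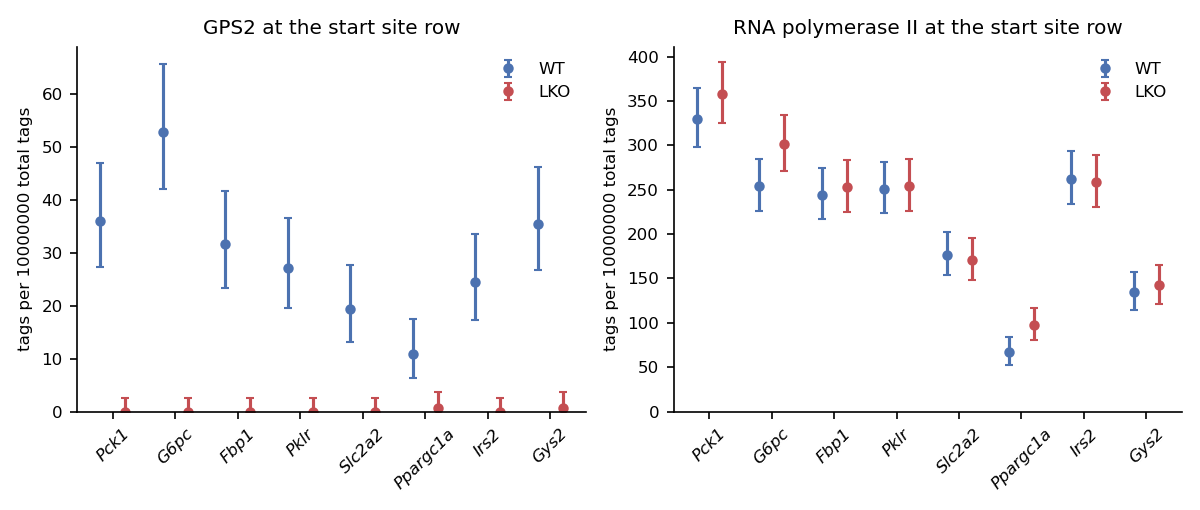
Tags per 10000000 total tags at the row within 1000 bases of each start site, for GPS2 (left) and RNA polymerase II (right), in 1 WT and 1 LKO library, with exact Poisson 95% intervals as bars. GPS2 was at 0 or 1 tag in LKO for all 8 genes, and the polymerase intervals of WT and LKO overlap for every gene.

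H3K4me3 rose in GPS2 LKO over wide regions at 3 of the 8 genes, including Pck1, whose RNA was lower. Values here and below are tags per 10000000 total tags of the library, tested by edgeR's quasi-likelihood test with Benjamini-Hochberg adjustment over all rows. Of 12 member rows tested 3 were called higher, against 0.798% of 22814 rows. The region spanning Pck1 (chr2:172956457-172992619, 36163 bases) held 1327 and 1325 in WT and 1944 and 1825 in LKO, a log2 fold change of 0.51 (SE 0.06, adjusted p = 0.00154). Across G6pc (chr11:101211132-101242859, 31728 bases, which takes in the upstream site) the values were 892 and 1048 in WT and 1481 and 1531 in LKO, a change of 0.64 (SE 0.08, adjusted p = 0.00117). Across Slc2a2 (chr3:28593552-28629687, 36136 bases) they were 1053 and 1066 in WT and 1279 and 1342 in LKO, a change of 0.31 (SE 0.06, adjusted p = 0.0358). In each of the 3 regions both LKO libraries were above both WT libraries, as they were in 6160 of the 22814 rows. With TMM scaling Slc2a2 was no longer called (adjusted p = 0.12), and leaving out any 1 of the 4 libraries left 2 of the 3 calls.

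H3K27ac was not called in these 3 regions. The Pck1 region had 3239 and 3189 in the WT libraries against 3247 and 3550 in those of LKO (0.08, adjusted p = 0.744), at G6pc 2352 and 2083 against 2363 and 2120 (0.02, adjusted p = 0.969), and at Slc2a2 the change was −0.05. Instead, 3 of 45 member rows were called higher, all outside promoters, against 1.21% of 47108 rows. A row 141.1 kb upstream of Irs2 went from 19.6 and 23.2 to 73.0 and 73.7, a change of 1.77 (SE 0.17, adjusted p = 0.00821), and one 57.8 kb upstream from 8.79 and 12.6 to 27.8 and 28.5 (1.38, SE 0.25, adjusted p = 0.0443). All 11 Irs2 rows had a log2 fold change above 0, with a median of 0.61, while Irs2 RNA was not higher. The 3 Gys2 rows went the other way, with a median of −0.84 and both LKO libraries below both WT libraries in each, as in 14.6% of all rows, but none was called (adjusted p from 0.0806 to 0.222), and Gys2 RNA was higher. In an intron of Ppargc1a, 16.0 kb from its start, H3K27ac went from 114 and 122 to 176 and 199 (0.67, SE 0.11, adjusted p = 0.0379). None of the 3 calls was left without WT 1 or without WT 2, and 1 of them, the most distant Irs2 row, was left with TMM scaling.

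PPARα was found at the start sites of the gluconeogenic genes in WT and was far lower in PPARa KO. Of 79 member rows 36 were called lower, against 27.6% of 40241 rows. At the Pck1 start site the values were 22.7 and 27.5 in WT and 1.37 and 2.20 in KO (−3.75, SE 0.46, adjusted p = 3.21e-05). G6pc had 22.7 and 27.5 at its start against 4.12 and 0.733 (−3.29, adjusted p = 0.000123), and 22.7 and 29.1 against 2.75 and 0.733 at the upstream site with the full repeat (−3.80, adjusted p = 4.21e-05). Slc2a2 had 24.8 and 25.2 against 2.06 and 0.733 (−4.06, adjusted p = 2.67e-05). These WT and KO libraries did not overlap, and KO lay wholly below WT in 68.3% of all rows. Fbp1 (−2.06, adjusted p = 0.00811) and Pklr (−3.11, adjusted p = 0.0126) were lower at their starts as well, and the called rows per gene were 8 of 11 for G6pc, 6 of 10 for Slc2a2, 5 of 8 for Fbp1, 3 of 7 for Pck1, 2 of 3 for Pklr, 2 of 6 for Gys2, 6 of 16 for Ppargc1a and 4 of 18 for Irs2. With 2 libraries per group the calls were fragile: none was left without WT 1 or without WT 2, and TMM scaling, which centres the changes, left 5 lower and 1 higher.

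NCOR was not called lower in PPARa KO at the promoters of these genes. At the Pck1 start site it was 115, 106 and 111 in PPARa WT and 132, 129 and 110 in PPARa KO (0.16, adjusted p = 0.699), and at the strongest G6pc promoter row 126, 132 and 131 against 128, 137 and 122 (−0.01, adjusted p = 0.982). At the G6pc upstream site with the full repeat the change was −0.16 (adjusted p = 0.729). WT and KO libraries overlapped at all 3 places. Only 8 of 133 member rows were called lower and none higher, against 2.51% lower of 115042 rows, and all 8 lay away from the start sites.

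Pck1 and G6pc held 4 of these 8 rows. Just past the Pck1 gene, 7.0 kb from its start, NCOR went from 51.2, 56.8 and 58.1 to 25.3, 29.6 and 14.2 (−1.26, SE 0.29, adjusted p = 0.00145), with a neighbour at 7.3 kb (−1.67, adjusted p = 0.00179). At 23.6 kb downstream of the G6pc start it went from 43.9, 36.1 and 53.1 to 18.0, 15.5 and 10.7 (−1.59, SE 0.33, adjusted p = 0.000189), with a neighbour at 24.2 kb (−1.38, adjusted p = 0.0102). Every KO library was below every WT library in these rows, against 18.8% of all rows. Fbp1 had 1 such row in an intron, 4.7 kb from its start (−0.89, adjusted p = 0.0395), and Ppargc1a had 3, at 265.5 kb (−0.94, adjusted p = 0.0469), 513.0 kb (−2.50, adjusted p = 0.0046) and 514.0 kb (−2.29, SE 0.40, adjusted p = 5.01e-06). With TMM scaling, which moved the centre of all rows upward, 4 member rows were called lower and 2 higher. Matched by position, PPARα was called lower at 36 member sites, all with an NCOR row, and NCOR was called lower at 4 of them (11.1%). Of the 6 sites where NCOR was called lower, 5 had a PPARα row in the PPARa line, and PPARα was called lower at 4 (66.7% of the 6).

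GPS2 in PPARa KO was below WT at 51 of 52 member rows, with a median log2 fold change of −1.02, but the same held for all rows (median −0.93). A single row was called, against 0.273% of 27842 rows. It lies in an intron of Ppargc1a, 8.1 kb from the start, where WT libraries had 7.63, 5.85 and 15.4 and KO libraries 0.728, 0 and 0.721 (−4.06, SE 0.94, adjusted p = 0.0145). At the G6pc start site GPS2 was 39.5, 30.6 and 48.5 in WT and 25.5, 18.2 and 19.5 in KO (−0.90, adjusted p = 0.25), with all KO below all WT libraries, which was so in 31.3% of all rows. At Pklr, in contrast, the values were 28.4, 14.9 and 17.7 against 27.7, 23.5 and 20.9. The share of tags in peaks was 2.42% to 4.39% in WT and 1.07% to 2.06% in KO, and TMM scaling, which evens this out, left no member called, as did leaving out any library but WT 2.

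PPARα tags in GPS2 LKO were above WT at 133 of 139 member rows, within a general gain over the table. Of 139 rows 44 were called higher and none lower, against 21.5% of 102519 rows called higher, and the medians were 0.72 for the members and 0.62 for all rows. The 3 WT libraries differed by less than the sampling noise (chi-square per degree of freedom 0.987 to 0.998) and were counted as 1 sample against 3 LKO libraries. The spread in this test therefore comes from the LKO libraries alone and the single WT sample is assumed to vary like them. DESeq2 was run with its own size factors in place of total tags, which took out the general gain (median of all rows 0.02). It called 0 member rows and 22 rows of the whole table. The share of tags in peaks was 19.2% to 21.9% in WT and 28.9% to 32.1% in LKO. Ppargc1a held 22 of the 44 calls among its 44 rows and Irs2 13 among its 29, while Slc2a2 had 4 of 17, Gys2 3 of 9, Pck1 and Fbp1 1 of 11 each, and G6pc (11 rows) and Pklr (7 rows) none.

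The greatest gain among the called rows was at the Irs2 window shown above, 137.0 kb upstream, where the 3 WT libraries had 7.59, 3.80 and 5.64 and the LKO libraries 41.4, 37.9 and 26.4 (2.62, SE 0.40, adjusted p = 8.15e-08). A row 77.0 kb upstream went from 39.2, 37.0 and 37.2 to 114, 95.7 and 92.1 (1.40, adjusted p = 1.89e-05). At the 137.0 kb window there was no GPS2 or NCOR peak, and no PPARα peak in the other lines. The start sites moved less. Pck1 had 144, 158 and 149 in WT and 183, 172 and 151 in LKO (0.15, adjusted p = 0.651), G6pc had 103, 133 and 106 against 126, 152 and 133 (0.25, adjusted p = 0.452), and Gys2, which was called, had 30.4, 46.5 and 31.6 against 56.3, 70.1 and 62.7 (0.77, SE 0.26, adjusted p = 0.0215). With TMM scaling the general gain was taken out and 3 member rows were called higher and 2 lower. The Irs2 window (2.02, adjusted p = 0.00049), a second Irs2 row at 81.0 kb (1.62, adjusted p = 0.0343) and the Ppargc1a row at 513.0 kb (1.31, adjusted p = 0.0438) were those called higher.

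NCOR in GPS2 LKO showed no called member row of 104, against 0.0173% of 80813 rows called in either direction by edgeR, and the median of the members was −0.01. At an unadjusted p below 0.05 there were 8 member rows, beside 2253 of the 80813 rows. DESeq2 called 0 member rows and 65 rows of the whole table. At the Pck1 start site NCOR went from 84.5, 79.4 and 76.5 in WT to 58.2, 94.6 and 47.7 in LKO (−0.26, adjusted p = 1.00), and at the Gys2 start 92.7, 125 and 94.5 against 92.0, 104 and 59.7 (−0.29). LKO libraries lay on both sides of the WT values at Pck1. The third library of each genotype had the lowest share of tags in peaks, at 8.26% in WT and 7.33% in LKO.

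GPS2 in NCOR LKO was below WT at 80 of 82 member rows, with a median of −1.45 against −1.12 for all rows, yet none was called by edgeR, against 0.0338% of 56278 rows. At an unadjusted p below 0.05 there were 48 member rows, beside 19323 of the 56278 rows. DESeq2, whose own size factors moved the median of all rows to −0.0025, called 0 member rows and 450 rows of the whole table. At the G6pc start site the values were 104, 128 and 30.0 in WT and 38.4, 33.7 and 25.5 in LKO (−1.42, adjusted p = 0.102), at the Pck1 start 64.7, 82.3 and 16.6 against 25.1, 20.7 and 11.4 (−1.50, adjusted p = 0.0942), and at the Fbp1 start 59.7, 37.4 and 17.7 against 7.89, 12.4 and 6.23 (−2.11, adjusted p = 0.0761). WT 3 stood apart in each: 3.07% of its tags were in peaks, against 8.23% and 7.82% in the other WT and 2.45% to 3.15% in LKO. Without WT 3, 71 of the 82 rows were called lower, beside 33472 rows of the whole table.

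PPARα in NCOR LKO gave no called member row of 101, against 0.196% of 86168 rows in edgeR, with a median of 0.08. At an unadjusted p below 0.05 there were 8 member rows, beside 4506 of the 86168 rows. DESeq2 called 1 member row and 463 rows of the whole table. At the Pck1 start site the values were 159, 145 and 62.3 in WT and 132, 110 and 142 in LKO (0.07). All 5 Pklr rows were below 0, with a median of −1.59, and 3 had every LKO below every WT library, which 2.01% of all rows had. The 3 rows were not called (adjusted p from 0.331 to 0.781). WT 3 was again the low library, with 8.96% of its tags in peaks against 18.6% and 19.3% in the other WT libraries, and without it 4 member rows were called, all lower.

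**Figure D4:**
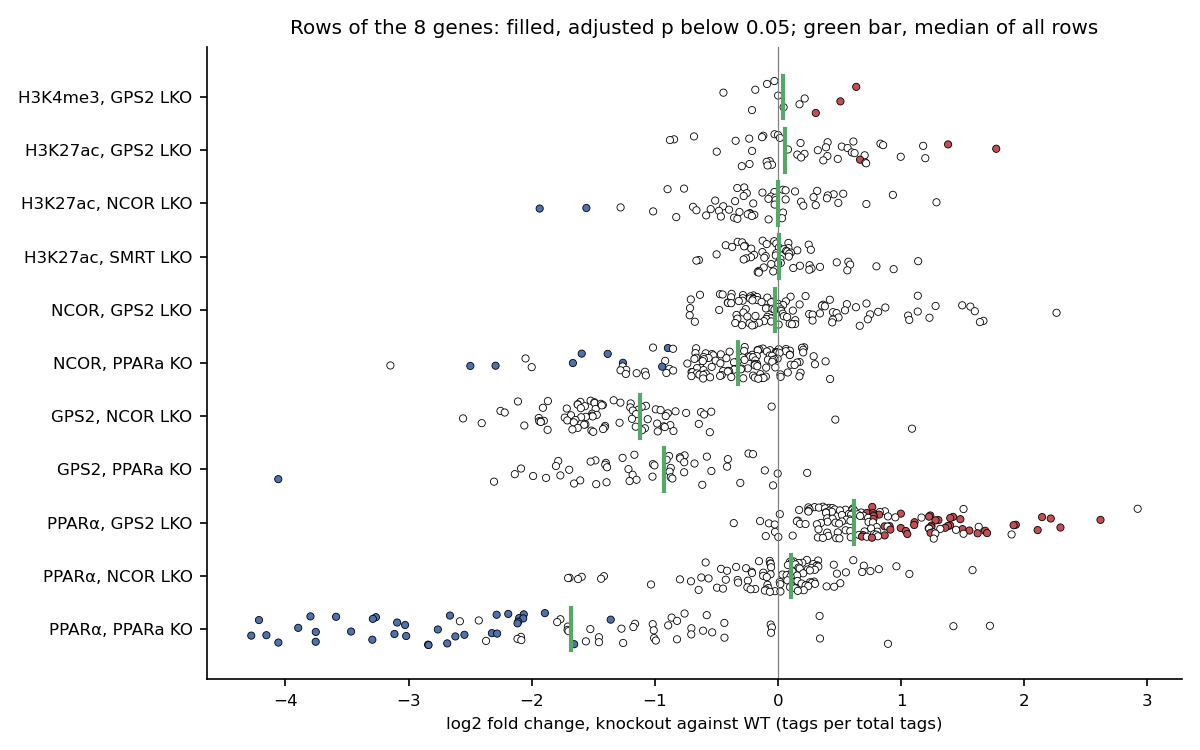
Log2 fold change of every tested ChIP-seq row of the 8 genes, knockout against WT on total tags, 1 point per row (ordered by gene and position within a band), filled red where called higher and blue where called lower. Green bars give the median of all rows of the table, and the points of PPARα in PPARa KO (36 lower) and in GPS2 LKO (44 higher) hold most of the calls.

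H3K27ac in NCOR LKO was lower at 2 of 57 member rows and higher at none, against 0.801% of 68817 rows called lower. Both rows are annotated to Ppargc1a and lie far from it. The row 409.0 kb from the start went from 14.8, 21.8 and 23.5 to 6.11, 3.90 and 5.64 (−1.94, SE 0.25, adjusted p = 0.00512). The row at 513.9 kb went from 17.2, 22.5 and 42.9 to 7.91, 8.30 and 11.9 (−1.56, SE 0.33, adjusted p = 0.0348). All LKO libraries were below all WT libraries in both, which held for 9.04% of all rows. The broad rows of Pck1 (−0.20, adjusted p = 0.553), G6pc (0.04), Fbp1 (−0.27) and Slc2a2 (−0.33) were not called. Leaving out WT 2 or WT 3 kept 1 of the 2 calls.

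In SMRT LKO no member row of 57 and no row of the table was called by edgeR (0.0% of 68800), although 10 member rows and 4079 rows had an unadjusted p below 0.05, and DESeq2 called 1 member row and 68 rows. The 513.9 kb row of Ppargc1a went the other way there, from 26.0, 18.4 and 24.6 to 69.3, 38.5 and 43.8 (1.14, SE 0.25, adjusted p = 0.803), with all LKO above all WT libraries, as in 5.8% of all rows. The difference between the NCOR and SMRT effects was tested itself as an interaction in edgeR. It was −2.69 (SE 0.46, adjusted p = 0.0232) at 513.9 kb and −2.51 (SE 0.44, adjusted p = 0.0265) at 409.0 kb, where 0.0959% of 68818 rows were called in that direction. The lines differed in more than the deleted gene. Rows on chromosome Y held 4286 and 4367 tags in the WT and LKO libraries of the NCOR line and 0 and 0 in those of the SMRT line, although the study's methods name male mice only. What sets these libraries apart on chromosome Y was not tested, and it cannot be told apart from the line in this difference. At the Irs2 window, H3K27ac was 0.795, 1.20 and 1.12 in NCOR WT and 35.9, 22.8 and 32.3 in SMRT WT, and this difference between lines was not tested.

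The distal Ppargc1a site brought several of these readouts together. PPARα there was 5.66 and 7.65 in PPARa WT and 1.37 and 0.733 in KO (−2.55, SE 0.88, adjusted p = 0.0408), and NCOR in the same line was 23.6, 32.7 and 24.4 against 9.81, 4.04 and 2.85, as tested above. In GPS2 LKO, PPARα rose from 59.5, 73.1 and 58.6 to 164, 135 and 122 (1.11, SE 0.26, adjusted p = 0.000812). NCOR had 22.6, 11.5 and 13.3 in GPS2 WT and 30.5, 55.5 and 19.0 in LKO (1.13, adjusted p = 1.00), and these groups overlapped. GPS2 had 19 tags there in the single GPS2 WT library and 0 in LKO. H3K27ac in the GPS2 line went from 21.6 and 44.6 in WT to 51.9 and 49.6 in LKO (0.60, adjusted p = 0.406). Among the 162 merged sites of the 8 genes, 72 held GPS2, NCOR and PPARα rows, this site among them, and 42 were in all 8 peak tables of these proteins.

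**Figure D5:**
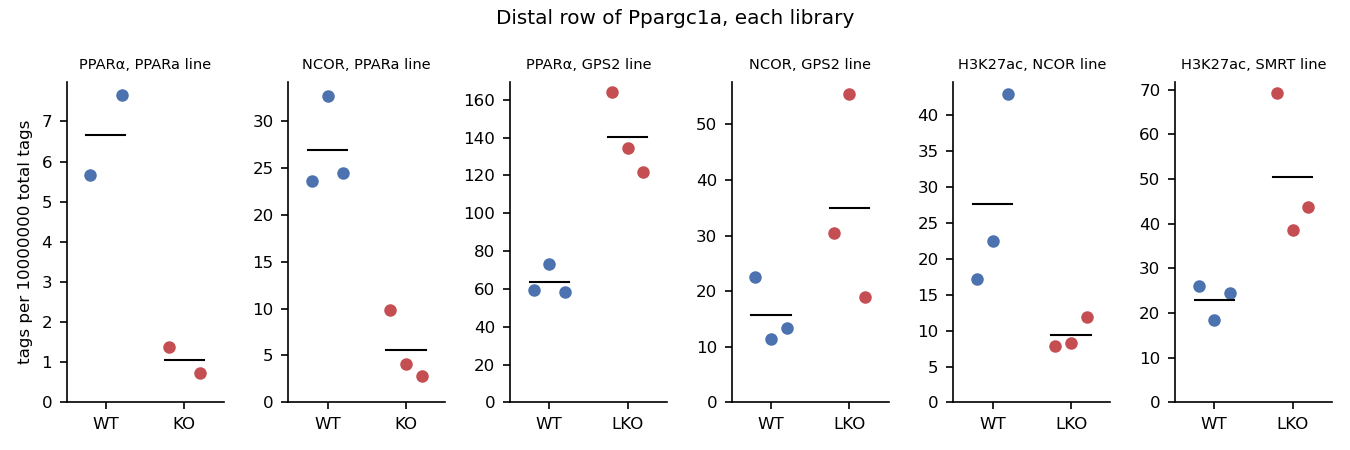
Tags per 10000000 total tags at the row 514 kb from the Ppargc1a start, 1 point per library, with a line at the mean of WT and knockout, in 6 comparisons with separate linear axes. PPARα and NCOR are lower in PPARa KO, PPARα is higher in GPS2 LKO, and H3K27ac is lower in NCOR LKO (−1.56) and numerically higher in SMRT LKO (1.14, not called).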

How the data were processed

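Poly(A) RNA of 8 livers and ChIP-seq DNA of 64 libraries plus 2 inputs (not used in a comparison) were sequenced by the authors. For RNA the authors deposited raw read counts per gene, and the gene positions in that table are GRCm38. The study's methods name HISAT2 and HOMER, and the submitters' processing notes also name featureCounts, so the program behind the table is not settled. For ChIP-seq the authors deposited raw tag counts per merged peak on NCBI37/mm9, from Bowtie2 alignments per the submitters' notes and HOMER peaks, and per-sample peak lists, whose score column, as deposited, holds 1 for every peak, so that only positions were used. Columns of fold changes and p-values in the RNA table hold the authors' own comparison and were not used.

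RNA counts were filtered by filterByExpr, scaled by TMM and tested with edgeR 4.0.16 (R 4.3.3) by the quasi-likelihood F-test with Benjamini-Hochberg adjustment over all genes, called at an adjusted p below 0.05. ChIP tags were tested the same way with total tags as library sizes and a filter of 1 tag, and the H3K27ac and H3K4me3 rows of the GPS2 line had to lie in at least 2 peak lists of that mark. Tables with 1 library per genotype have exact intervals at 95%. DESeq2 1.42.0 with its own size factors, other scalings, filters, a replicate block and leaving out each library were alternatives. The labels number the replicates but do not say that they came from separate animals, so p-values measure the spread between these samples. The same edgeR step was tested on simulated data.

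Rows named are the 8 genes, the row within 1000 bases of the start site, the row with most tags and up to 3 called rows per gene and comparison, and in each list the called genes that moved by 1 or more on the log2 scale, or else up to 4. Some genes that this rule names are not reported here. The members and lists were chosen with earlier results of these data known. Sequences come from the NCBIM37 genome and the RefSeq promoter table.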

Additional observations from a re-analysis of the deposited data

Results flagged for a closer look

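Among the 4 LKO livers, Pck1 RNA stood apart in 1: LKO 3 had 3097.41 CPM, and its gap to the next value made up 0.865 of the range of the group. Chance alone sets 1 sample apart in this way in about 1 in 20 groups. Without LKO 3 the Pck1 change was −0.26 (edgeR, adjusted p = 0.00119).

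The H3K27ac effect differed between NCOR LKO and SMRT LKO at both distal Ppargc1a rows by the interaction test in edgeR. NCOR minus SMRT was −2.69 at the row 513.9 kb from the start (adjusted p = 0.0232) and −2.51 at 409.0 kb (adjusted p = 0.0265). At the first row the change was −1.56 in NCOR LKO, with 3 of 3 LKO libraries below WT, and 1.14 in SMRT LKO, with 3 of 3 above. Without NCOR LKO 1, NCOR WT 2, SMRT LKO 1, SMRT LKO 3 or SMRT WT 1 neither row was called, and without NCOR LKO 3 or NCOR WT 3 only 1 was.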

How the results depend on the processing

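Direction was checked for the 8 genes and for up to 3 called rows per gene and comparison, where a setting gave an adjusted p. None of these values changed direction under the alternatives tried, but medians of the members near 0 did. For PPARα in NCOR LKO the median went from 0.08 to −0.02 with TMM scaling, −0.02 with DESeq2, −0.19 without WT 3 and −0.18 without LKO 3. For NCOR it went from −0.30 to 0.01 with TMM scaling and 0.00 with DESeq2 in PPARa KO, and from −0.01 to between 0.09 and 0.24 without WT 1, WT 2 or LKO 3 in GPS2 LKO. For H3K4me3 in GPS2 LKO and H3K27ac in SMRT LKO it took either sign, from −0.03 to 0.11 and from −0.10 to 0.04. Counts are given as called member rows and called rows of the whole table, where they moved by over 1.5 times, and the cause was not tested. With TMM scaling they were 1 and 382 for H3K27ac in GPS2 LKO, 1 and 1257 for GPS2 in NCOR LKO, 0 and 42 for GPS2 in PPARa KO, 3 and 359 for NCOR in GPS2 LKO, 5 and 998 for PPARα in GPS2 LKO, 4 and 1496 for PPARα in NCOR LKO, and 6 and 1448 for PPARα in PPARa KO. With total counts 3 member genes were called in RNA. DESeq2 gave 4 and 3395 for H3K27ac in NCOR LKO, 1 and 68 in SMRT LKO, 450 rows for GPS2 in NCOR LKO, 0 and 12 for GPS2 in PPARa KO, 65 rows for NCOR in GPS2 LKO, 2 and 598 for NCOR in PPARa KO, 0 and 22 for PPARα in GPS2 LKO, 1 and 463 in NCOR LKO, and 5 and 569 in PPARa KO. A filter on low counts gave 5 and 1700 for GPS2 in NCOR LKO, 151 rows for GPS2 in PPARa KO, 8 for NCOR in GPS2 LKO, 75 for PPARα in NCOR LKO and 7357 for PPARα in PPARa KO. Using all rows of the table gave 7 and 1080 for H3K27ac and 32 rows for H3K4me3 in GPS2 LKO.

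Whether the replicate numbers pair the samples was not settled. In no comparison with 3 or more pairs did every pair correlate above 0.1. For NCOR in PPARa KO, however, pairs 2 and 3 reached 0.25 and 0.27, and pair 1 was at −0.02. With 2 libraries per group the correlation was 0.17 for H3K27ac and 0.23 for H3K4me3 in the GPS2 line, and 0.04 for PPARα in the PPARa line. The replicate block gave 13 and 2464 for H3K27ac and 701 rows for H3K4me3 in GPS2 LKO, 1143 rows for H3K27ac in NCOR LKO, 31 and 10541 for GPS2 in NCOR LKO, 0 and 0 for GPS2 in PPARa KO, 1 and 288 for NCOR in GPS2 LKO, 1972 rows for NCOR in PPARa KO, 0 rows for PPARα in NCOR LKO, and 0 and 0 in PPARa KO. With the WT libraries of PPARα in the GPS2 line kept as 3 samples it gave 73 and 37826, and 77 and 37246 with the block as well. Of member rows within 10000 bases of a start site, 0 of 8 were called for H3K27ac in GPS2 LKO, beside 207 of 19597 such rows of the whole table. For H3K27ac in NCOR LKO it was 0 of 11, beside 621 of 25504, and for NCOR in PPARa KO 3 of 45, beside 841 of 47604. PPARα had 8 of 46 in GPS2 LKO, beside 6898 of 43690, and 17 of 34 in PPARa KO, beside 4220 of 17369. The summed GPS2 ratio was 0.582 when scaled to tags in peaks and 0.0174 within 10000 bases, and the polymerase ratio 1.04 when scaled to tags in peaks.

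Leaving out each library in turn gave 7 to 8 member genes and 4366 to 6970 genes for RNA. For H3K27ac it gave 0 to 11 and 0 to 3006 in GPS2 LKO, 1 to 3 and 397 to 2560 in NCOR LKO, 0 to 0 and 0 to 2 in SMRT LKO, and 0 to 2 and 51 to 372 for the difference between these lines. For H3K4me3 it gave 2 to 2 and 110 to 236. For GPS2 it gave 0 to 71 and 0 to 33472 in NCOR LKO and 0 to 1 and 2 to 68 in PPARa KO. For NCOR it gave 0 to 1 and 0 to 78 in GPS2 LKO and 5 to 7 and 1207 to 2855 in PPARa KO. For PPARα it gave 29 to 46 and 10156 to 24801 in GPS2 LKO, 0 to 4 and 5 to 835 in NCOR LKO, and 0 to 34 and 0 to 8839 in PPARa KO. Counting LKO 1 and LKO 4 of the RNA set as 1 sample, an alternative chosen after seeing the data because they differed little from each other, left 7 member genes called. Single values were also counted once for each other setting, without the fits that left out a library. Of these pairs of value and setting, 175 kept their outcome, called or not, and 100 lost the call. Depth limits the distal rows, many of which hold under 50 tags per 10000000.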
